A study of Ovis aries with 9 samples.

Results

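The circadian clock genes described here are CLOCK, NPAS2, PER1, PER2, PER3, CRY1, CRY2, NR1D1, NR1D2 and DBP, measured in hypothalamus of Dolang ewes before, during and after the onset of puberty. A gene was taken by its RefSeq symbol, and the FPKM of its protein-coding transcripts (44 for the 10 genes) was summed in each library. FPKM is a fragment count scaled for transcript length and library size, so levels can be compared between genes. The 10 genes are among 21284 sheep genes with coding transcripts in the data. The study collected hypothalamus from 3 prepubertal ewes at about 120 days of age, 3 ewes at about 130 days that showed puberty for the first time, and 3 postpubertal ewes at about 150 days, with 1 library per ewe. All ewes were healthy, of 1 breed, kept under the same management and sampled in autumn, and stage was judged from behaviour and vulva. The hour at which each ewe was sampled is not given in the sources used here, and its part in the values below was not tested. The question is whether these genes differ between the stages, and whether genes of opposite clock phase move against each other across ewes.

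In the mammalian clock, CLOCK or NPAS2 pairs with BMAL1 on E-box elements and turns on the PER and CRY genes, whose proteins enter the nucleus and repress that pair. NR1D1 and NR1D2 (REV-ERB alpha and beta) are heme-binding nuclear receptors that repress genes with ROR elements, among them BMAL1, CLOCK, NPAS2 and CRY1, and DBP is a transcription factor of the PAR bZIP family driven directly from E-boxes. PER, NR1D and DBP transcripts therefore peak near each other in the daily cycle, and BMAL1, CLOCK and NPAS2 peak at another phase. The suprachiasmatic nucleus, a small part of the hypothalamus, holds the central pacemaker of mammals, while most other brain regions carry damped clocks of their own. Below, the early arm means the 6 genes PER1, PER2, PER3, NR1D1, NR1D2 and DBP, and the late arm the 3 genes CLOCK, NPAS2 and CRY1. CRY2 was put in neither.

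The library Puberty 2 stood apart from the other 8. Its FPKM values summed to 599726, against 359588 to 398109, and it listed 10970 genes at 0.5 FPKM or more, against 12985 to 13687. It also listed 32 genes at 0 that reached 10 FPKM in each of the other 8, a pattern found for 0 genes in any other library. Results are therefore given with and without it. The labelled tissue was checked against 12 hypothalamic markers. They summed to between 10.2 and 148 FPKM in the 8 libraries, most of it somatostatin (SST, 4.27 to 107) and TRH (0.824 to 36.8). Several defining markers were near 0 in the same libraries, with a highest value of 0.169 for AGRP, 0.262 for NKX2-1, 0.111 for SIM1 and 0.0626 for GHRH, while OTP reached 4.91, OXT 4.81 and HCRT 1.68. VIP, the neuropeptide of the light-receiving part of the suprachiasmatic nucleus, reached at most 0.263, and AVP, made there and in the magnocellular nuclei, ran from 0.551 to 3.15. Markers of neighbouring tissue were also present. Thalamus and cortex markers summed to 41.7 to 116 FPKM in the 8 libraries, with CALB2 up to 93.6 and SLC17A7 up to 51.7, and anterior pituitary markers to 2.96 to 221, with PRL up to 199.5. The sum of the thalamus and cortex markers was higher in each pubertal library (95.6 to 116, and 105 to 116 without Puberty 2) than in any prepubertal (42.5 to 69.2) or postpubertal one (41.7 to 83.6). CALB2 carried much of it (56.4 to 93.6 at puberty, 33.9 to 48.2 before and 8.10 to 66.6 after), and the other 5 markers overlapped between puberty and both other stages. Their part in the stage comparisons below was not tested.

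Levels of the 10 genes spanned about 2 orders of magnitude. Over the 8 libraries without Puberty 2, the mean was highest for CRY2 (25.0 ± 5.74 FPKM, SD, n = 8), followed by NR1D2 (13.1 ± 2.40), PER1 (8.64 ± 2.16), NR1D1 (8.63 ± 2.75), DBP (3.14 ± 1.04), CLOCK (2.77 ± 0.472), CRY1 (2.71 ± 0.652), NPAS2 (1.64 ± 0.811), PER2 (1.58 ± 0.946) and PER3 (0.237 ± 0.121). The ranges of neighbours in this order overlapped except between CRY2 and NR1D2 and between NR1D1 and DBP. NR1D2 was nonetheless above PER1 in 8 of 8 libraries. PER1 and NR1D1 had nearly equal means (PER1 higher in 6 of 8 libraries), and CLOCK exceeded CRY1 in 4 of 8 and NPAS2 exceeded PER2 in 3 of 8. CLOCK and NR1D2 varied least between ewes, with coefficients of variation of 17.1% and 18.3%, and PER2, PER3 and NPAS2 varied most, at 60.0%, 51.2% and 49.5%.

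**Figure D1:**
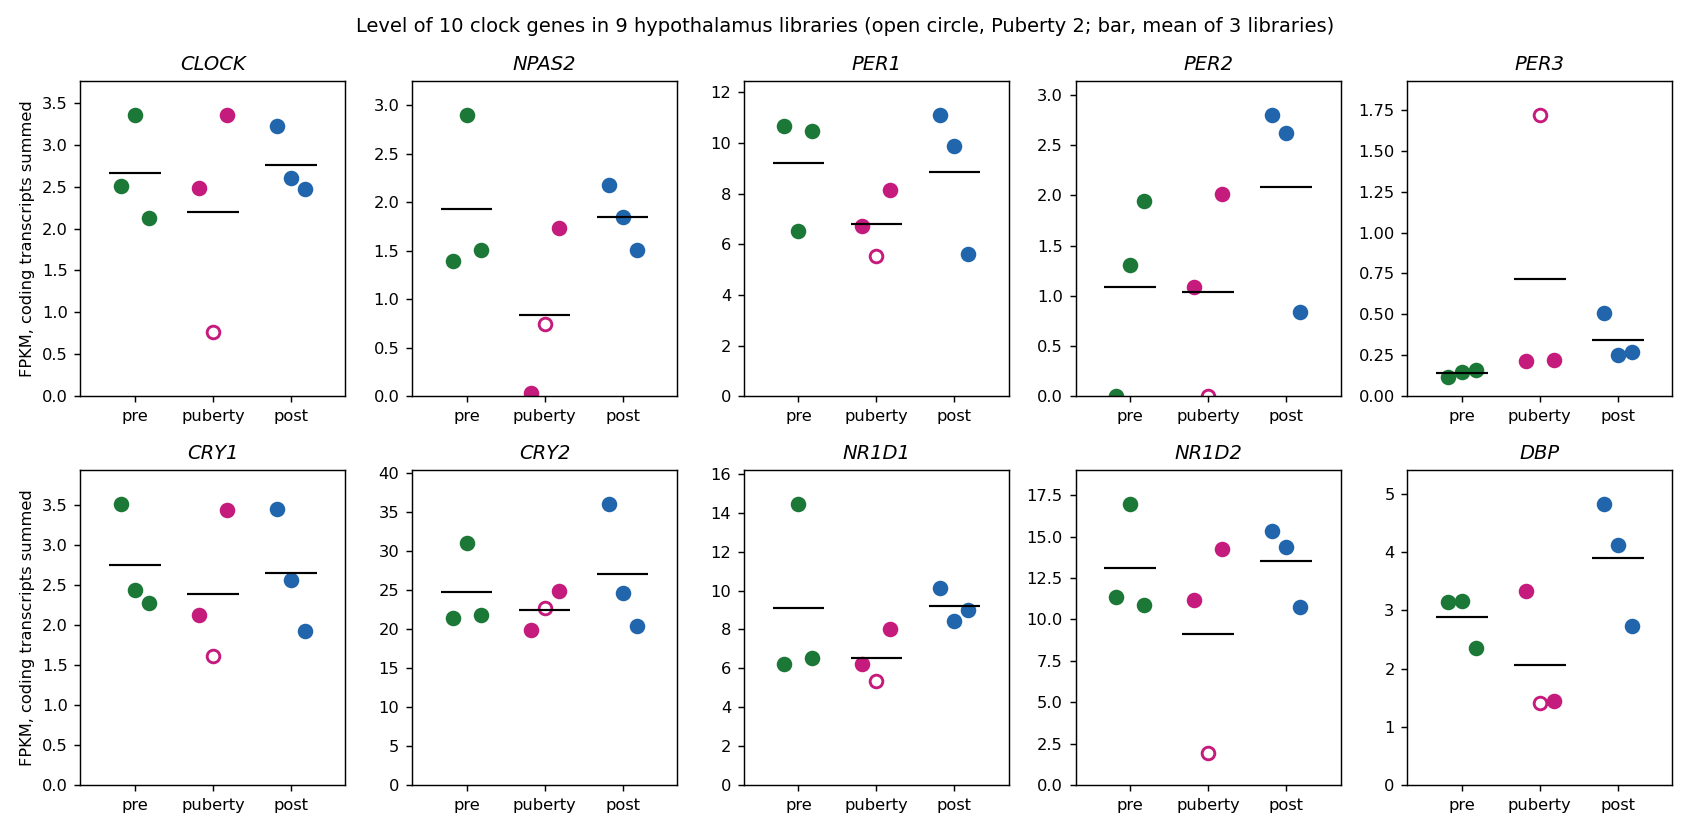
Summed FPKM of the coding transcripts of each clock gene (vertical axis, from 0) in each library, grouped by stage, with a bar at the mean of 3 libraries. Puberty 2, the open circle, lies below all other libraries for 6 genes and above them for PER3 (1.72 FPKM), and the stages overlap for every gene except PER3, where prepuberty is lowest, and NR1D1, where postpuberty lies above puberty.

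Puberty 2 fell below the other 8 libraries for 6 of the 10 genes (CLOCK, PER1, CRY1, NR1D1, NR1D2 and DBP), above them for PER3 and within their range for NPAS2, PER2 and CRY2. Among all 14238 tested genes, 51.9% were below and 20.2% above the other 8 libraries in Puberty 2. The share of clock genes that were low in this library was thus close to that of genes in general.

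No clock gene passed the test between stages. The test was limma, fitted to log2(FPKM + 1) with 3 libraries a stage, over the 14238 genes whose mean reached 0.5 FPKM in at least 1 stage, with Benjamini-Hochberg adjustment over all of them. Calls needed an adjusted p below 0.05 together with a log2 fold change of 1 or more in size. In each of the 3 comparisons, 0 of 10 clock genes and 0% of all tested genes were called. At an unadjusted p below 0.05 the counts were 0 clock genes in each comparison, beside 259 genes (1.82%) for puberty against prepuberty, 305 (2.14%) for postpuberty against puberty and 116 (0.815%) for postpuberty against prepuberty. Without Puberty 2 the clock genes again gave 0 calls and 0 unadjusted p below 0.05, and of all 14209 genes then tested 0 were called and 1.66%, 2.11% and 1.87% had an unadjusted p below 0.05. All 10 clock genes entered the test with 9 libraries. PER3 did so only through its value in Puberty 2, so its fold change is not read as a result, and with 8 libraries 9 clock genes were tested.

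The first activator, CLOCK, a bHLH-PAS transcription factor with acetyltransferase activity, lies at chr6:71576812-71700943 (assembly ARS-UI_Ramb_v3.0). It measured 2.51, 3.36 and 2.13 FPKM in the prepubertal ewes, 2.49, 0.766 and 3.35 in the pubertal ewes and 3.22, 2.60 and 2.47 in the postpubertal ewes, libraries 1 to 3 in this order throughout. The stages overlapped, and the low pubertal value is Puberty 2. The log2 fold change of puberty against prepuberty was -0.28 (SE 0.35) with 9 libraries and 0.10 (SE 0.21) with 8, so its direction rested on that library.

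NPAS2 (chr3:100485677-100690430), the paralog of CLOCK that can take its place beside BMAL1 and is prominent in forebrain, measured 1.40, 2.90 and 1.51 FPKM before puberty, 0.0362, 0.744 and 1.74 at puberty and 2.18, 1.85 and 1.51 after it. Its lowest value came from Puberty 1 and not from Puberty 2, and Puberty 3 lay inside the range of both other stages. The mean was 0.839 ± 0.854 (SD, n = 3) at puberty, against 1.94 ± 0.839 before and 1.84 ± 0.335 after. The log2 fold change of puberty against prepuberty, next to that of NR1D2 in size, was -0.75 (SE 0.37, 95% interval -1.58 to 0.08, limma adjusted p = 0.838). The value without Puberty 2 was -0.77 (SE 0.42), and that without Puberty 1 was -0.39. It was -1.70 (SE 0.86) with a pseudocount of 0.1 and -0.16 (SE 0.37) with the leading transcript alone, so its size rested on these choices.

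PER1, PER2 and PER3 encode the PERIOD proteins, which carry the repressor complex. PER1 (chr11:27595435-27610809), which is also quickly induced by light and glucocorticoids, measured 10.7, 6.51 and 10.5 FPKM before puberty, 6.74, 5.52 and 8.13 at puberty and 11.1, 9.88 and 5.60 after it. Prepuberty and postpuberty each held high and low libraries, and the pubertal values lay between or just below them. The log2 fold change was -0.37 (SE 0.32) for puberty against prepuberty and 0.31 (SE 0.32) for postpuberty against puberty, and -0.25 and 0.18 (SE 0.31 each) without Puberty 2. With the leading transcript alone, which was near 0 in Puberty 2, the values were -1.28 and 0.91 (SE 0.68 each). Leaving out single libraries gave 0.13 to 0.57 for postpuberty against puberty.

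PER2 (chr1:3041080-3080843) was listed at 0 in Prepuberty 1 and Puberty 2. The other prepubertal ewes had 1.31 and 1.94 FPKM, the other pubertal ewes 1.09 and 2.01, and the postpubertal ewes 2.80, 2.62 and 0.836. The sum rests on 1 coding transcript, the only one of PER2 in the data, so a listed 0 can be a failed estimate for that transcript. All stages overlapped, with a log2 fold change of 0.63 (SE 0.53, limma adjusted p = 1) for postpuberty against prepuberty. It ranged from 0.17 to 0.97 when single libraries were left out and was 1.56 (SE 1.40) with a pseudocount of 0.1.

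PER3 (chr12:44896108-44967399), the PERIOD paralog that the clock can run without, was the lowest of the 10 genes. Coding FPKM was 0.118, 0.149 and 0.163 before puberty, 0.215, 1.72 and 0.222 at puberty and 0.508, 0.254 and 0.268 after it. The prepubertal values, at most 0.163, did not overlap with either later stage, with or without Puberty 2. Every library was higher than before puberty for 2.32% of all tested genes at puberty and 3.17% after it with 9 libraries. With 8 libraries the shares were 7.16% and 3.16%, of a set that PER3 did not enter. As the gene was tested only because it was high in a pubertal library, these values are a description. On this scale of log2(FPKM + 1) the differences of so low a gene are compressed, and the gap between the highest prepubertal and the lowest pubertal library was 0.063.

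The coding transcripts are a small part of what is annotated as PER3. RefSeq lists 26 noncoding transcripts of the gene in these data, which summed to 2.39, 2.33 and 2.58 FPKM before puberty, 2.50, 0.00665 and 3.29 at puberty and 5.43, 3.31 and 3.10 after it. They exceeded the coding sum in 8 of the 8 libraries other than Puberty 2, where the order was turned around. Each postpubertal library lay above each prepubertal one in this sum, while puberty overlapped with prepuberty. Of all tested genes, by coding transcripts, 3.17% were higher in every postpubertal library. The share of all noncoding genes that do so was not computed, so this separation is a description. Summing both classes gave 2.48 to 5.94 FPKM over the 8 libraries, a level close to that of CLOCK and CRY1. CRY1 was the other clock gene with noncoding transcripts, 7 with 0.427 to 1.23 FPKM, which were below its coding sum in all 8.

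**Figure D2:**
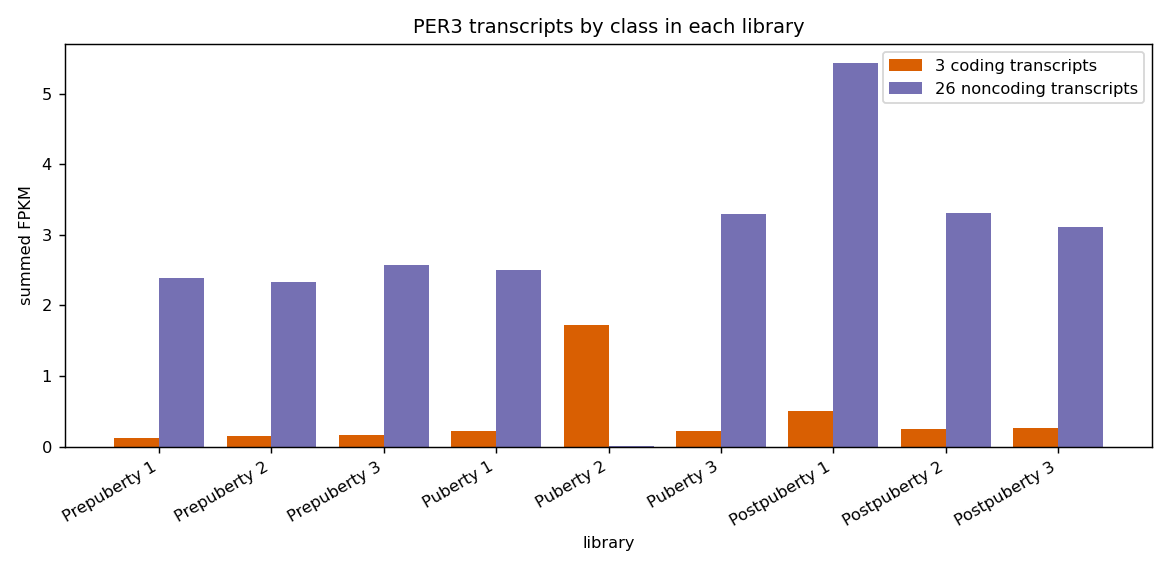
Summed FPKM of the 3 coding (orange) and the 26 noncoding (purple) transcripts of PER3 in each library, with the axis from 0. The noncoding sum is the larger in 8 libraries (2.33 to 5.43 FPKM), and in Puberty 2 the coding sum is 1.72 and the noncoding sum 0.00665.

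CRY1 and CRY2 encode the cryptochromes, which bind CLOCK and BMAL1 and repress them directly. CRY1 (chr3:175857513-175967700) measured 3.52, 2.44 and 2.28 FPKM before puberty, 2.12, 1.61 and 3.44 at puberty and 3.45, 2.56 and 1.92 after it. Each stage held 1 library above 3.4 and others from 1.61 to 2.56, and the log2 fold changes were between -0.16 and 0.12 (SE 0.30 each). CRY2 (chr15:74809518-74844441) measured 21.5, 31.1 and 21.8 FPKM before puberty, 19.9, 22.7 and 24.9 at puberty and 36.1, 24.6 and 20.4 after it. Prepuberty 2 and Postpuberty 1 were the high libraries, Puberty 2 was not unusual, and the log2 fold changes were between -0.12 and 0.22 (SE 0.28 each).

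NR1D1 (chr11:40142119-40149008) measured 6.23, 14.5 and 6.53 FPKM before puberty, 6.20, 5.36 and 8.01 at puberty and 10.1, 8.42 and 9.03 after it. All 3 postpubertal values were above all 3 pubertal ones, with or without Puberty 2. Prepuberty overlapped with puberty through Prepuberty 1 and Prepuberty 3, and with postpuberty through Prepuberty 2, the highest library. The same separation of postpuberty from puberty was found in 5.25% of all tested genes with 9 libraries and in 7.9% with 8. For NR1D1 it was lost when libraries were scaled by the median of ratios. The log2 fold change of postpuberty against puberty was 0.45 (SE 0.33, 95% interval -0.30 to 1.19, limma adjusted p = 0.780), and 0.34 (SE 0.33) without Puberty 2.

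NR1D2 (chr26:41310424-41339776), its paralog, measured 11.4, 17.0 and 10.9 FPKM before puberty, 11.2, 1.95 and 14.2 at puberty and 15.3, 14.4 and 10.8 after it. Only Puberty 2 was far from the rest. The log2 fold change of puberty against prepuberty went from -0.76 (SE 0.55) with that library to -0.02 (SE 0.25) without it, and that of postpuberty against puberty from 0.81 (SE 0.55) to 0.08 (SE 0.25).

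DBP (chr14:55025916-55032106), the output gene, measured 3.14, 3.15 and 2.35 FPKM before puberty, 3.33, 1.41 and 1.44 at puberty and 4.84, 4.13 and 2.73 after it. Puberty 2 and Puberty 3 were the lowest libraries of all, and Puberty 1 was higher than every prepubertal ewe, so puberty overlapped with both other stages. The log2 fold change of postpuberty against puberty, whose interval came closest of the 10 genes to leaving out 0, was 0.71 (SE 0.32, 95% interval -0.00 to 1.42, limma adjusted p = 0.780). Without Puberty 2 the value was 0.57 (SE 0.30, adjusted p = 1).

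**Figure D3:**
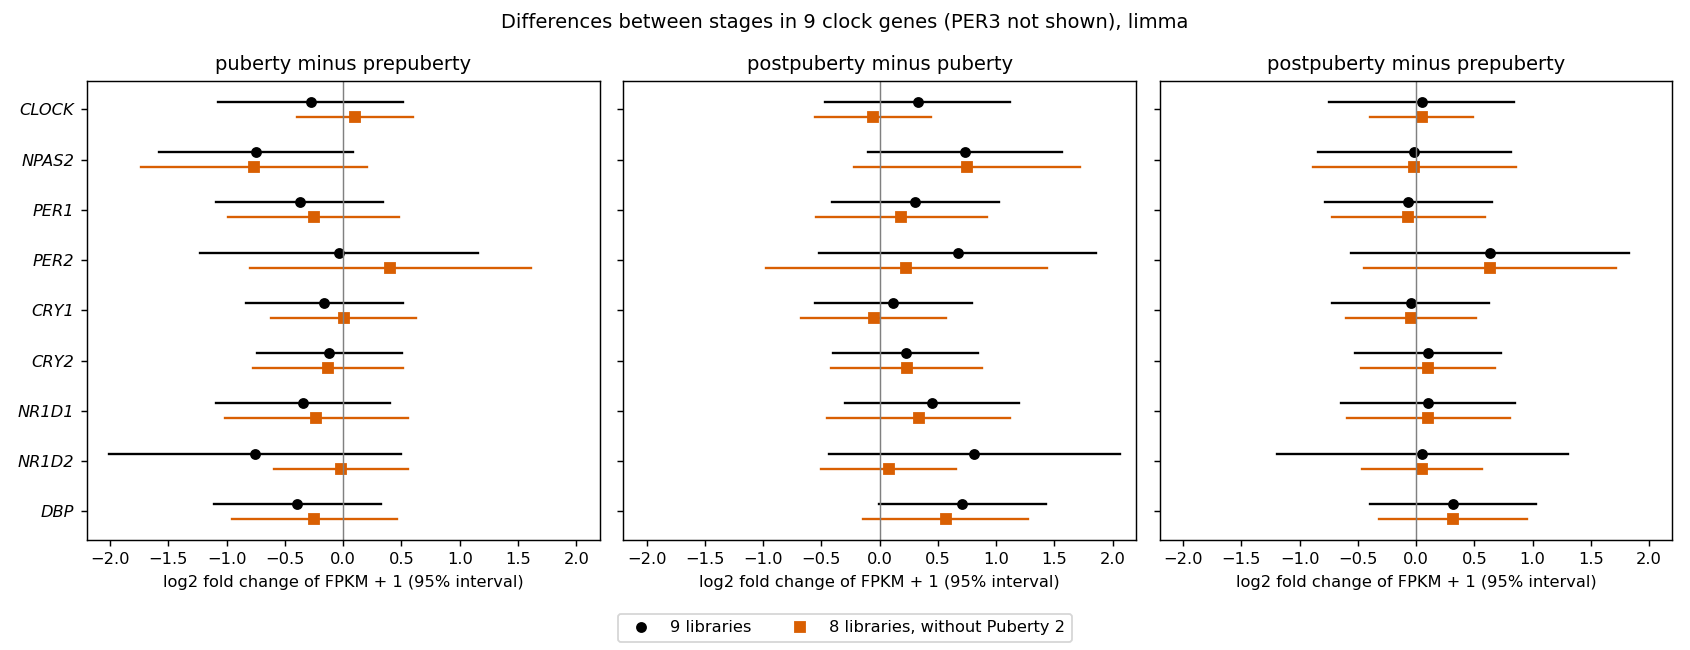
Log2 fold change of FPKM + 1 between stages for each clock gene except PER3 (points) with its 95% interval (lines) from limma, for all 9 libraries (circles) and without Puberty 2 (squares). Every interval includes 0, and CLOCK, NR1D2 and PER2 shift most when Puberty 2 is left out.

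Read as a group without PER3, 0 of 9 clock genes had a log2 fold change above 0 for puberty against prepuberty, 9 of 9 for postpuberty against puberty and 6 of 9 for postpuberty against prepuberty. Their medians were -0.34, 0.45 and 0.05, beside medians of -0.14, 0.19 and 0.05 over all tested genes, of which 5238, 9629 and 8848 of 14238 were above 0. With 9 libraries the lean of the clock genes was thus in the direction of genes in general. Without Puberty 2, 3, 7 and 6 of 9 were above 0, with medians of -0.13, 0.23 and 0.05 beside 0.02, 0.03 and 0.05, and 7852, 7831 and 8842 of 14209 genes above 0. For puberty against prepuberty the clock genes and all genes then leaned in opposite directions. Scaling moved the median over all genes, for puberty against prepuberty, from -0.14 to -0.28 with equal totals, -0.12 with the upper quartile, -0.02 with the median of ratios and 0.01 with quantile normalization, so directions of small changes are relative to that shift. CRY1, CRY2 and PER2 changed sign under some of these scalings.

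Among the same 9 genes, stages without overlap were found for 0, 1 and 0 in the 3 comparisons, with 9 libraries beside 5.16%, 7.32% and 4.57% of all tested genes and with 8 beside 11.7%, 14.1% and 4.53%. The gene was NR1D1, higher in every postpubertal than pubertal library. Every library was higher than before puberty for 0 of the 9 genes at puberty or after it, beside the shares given with PER3, which is left out of the 9 and was higher in both. Every library was lower for 0 of the 9 in the 3 comparisons, beside 2.84%, 2.07% and 1.4% of all genes with 9 libraries and 4.55%, 6.19% and 1.37% with 8. In bulk tissue, fewer cells of a type and less RNA per cell cannot be told apart in any of these values.

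Few pairs of early and late genes opposed each other across libraries, and the count depended on the processing. Among the 18 pairs of an early with a late gene, 3 had a negative Pearson's r over the 8 libraries, and these were CLOCK with PER1 (-0.109), CRY1 with NR1D1 (-0.0307) and CLOCK with DBP (-0.0141). The median of the 18 was 0.245 and the highest 0.868. The 18 include the pairs with PER3, which passed the filter only through Puberty 2. Over 8 libraries its r was 0.336 with CLOCK, 0.139 with NPAS2 and 0.208 with CRY1, so none of the negative pairs held it. For comparison, 39.8% of the correlations of the 3 late genes with the tested genes outside the clock set were negative in these libraries, with a median of 0.106. With all 9 libraries 3 of 18 were again negative, all with PER3 (-0.817 with CLOCK, -0.487 with CRY1 and -0.256 with NPAS2), and no pair without it was. The comparison value was 31.8%. PER3 is the gene that was high in Puberty 2 while CLOCK was low, and its r with CLOCK was 0.336 without that library. Over 8 libraries the count was 6 with the median of ratios, 6 with a pseudocount of 0.1, 5 with the leading transcript (lowest r -0.565), 4 with the upper quartile and 2 with equal totals, with medians from 0.203 to 0.251. With stage means subtracted, 3 of 18 were negative over 8 libraries, with a median of 0.351. Postpuberty 1, high in both arms, weighed on this count. When it was also left out, 9 of 18 were negative, the median was 0.0518 and the lowest was -0.448.

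**Figure D4:**
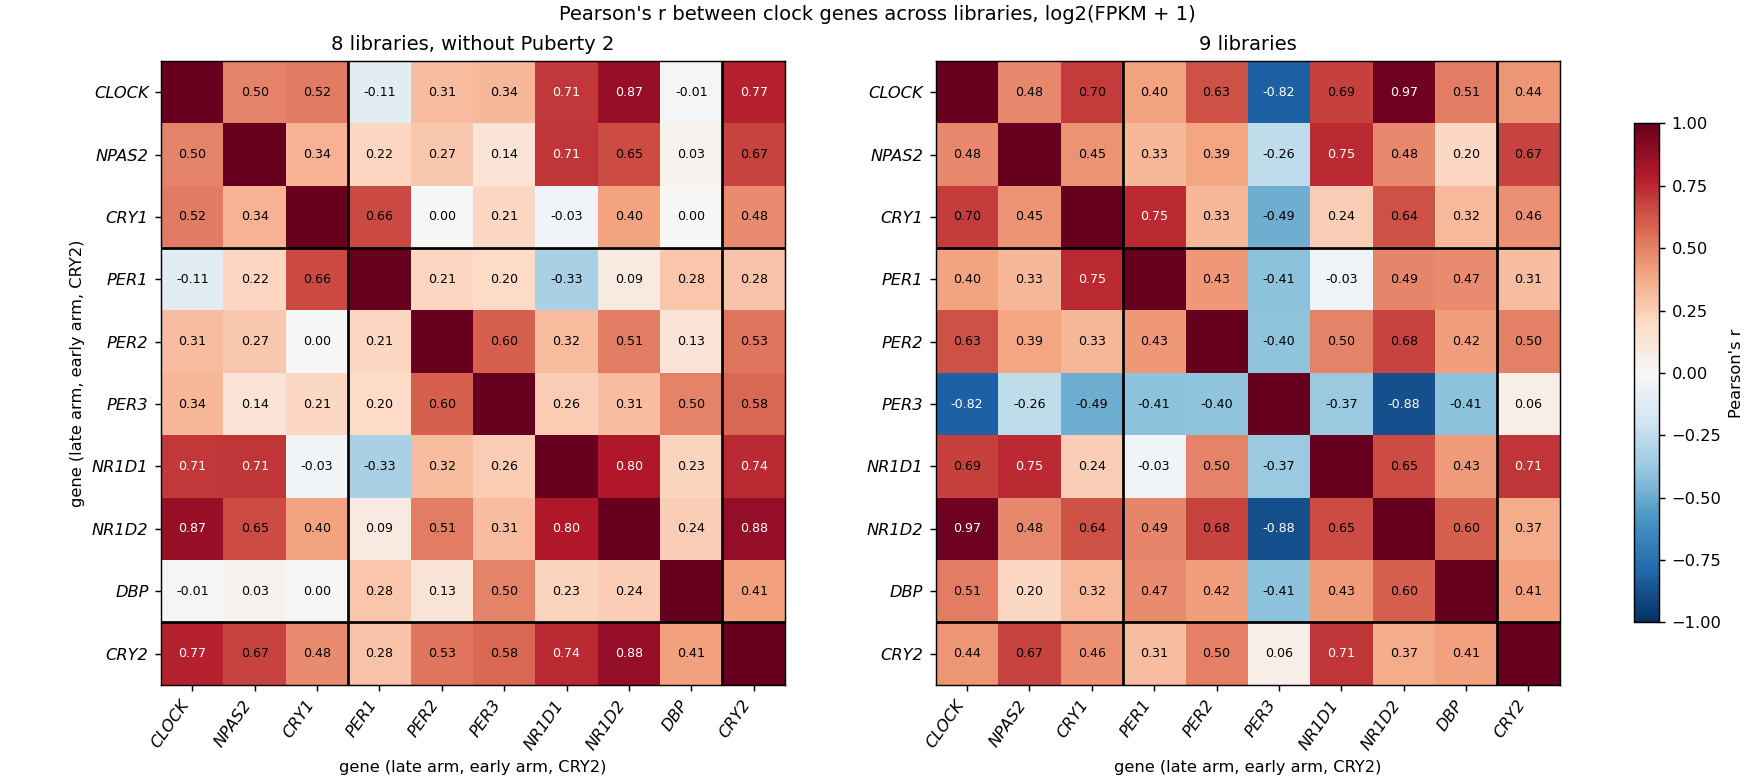
Pearson's r of log2(FPKM + 1) between clock genes, without Puberty 2 (left) and with all 9 libraries (right), with lines separating the late arm, the early arm and CRY2. On the left the off-diagonal blocks between arms are mostly positive (3 of 18 negative, median 0.245), and on the right the negative values of that block are those of PER3.

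CLOCK and NR1D2 formed the closest pair between the arms by Pearson's r, while NPAS2 with NR1D1 was closer by rho over 8 libraries. Over the 8 libraries CLOCK and NR1D2 had r = 0.868 (two-sided exact permutation p = 0.00424, adjusted p = 0.748) and rho = 0.905 (exact p = 0.00456, adjusted p = 0.805), and 0.730% of tested genes had an r to CLOCK at least as high. Over 9 libraries r was 0.974 (exact permutation p = 0.000267, adjusted p = 0.140) and rho 0.933. Left without Prepuberty 2 and Puberty 3, the libraries farthest from the median of CLOCK, r was 0.819. With stage means subtracted it was 0.909 over 8 libraries. Adjustment ran over the 142295 pairs of a clock gene with any tested gene for 8 libraries, and the 142325 for 9, and 0 of them passed 0.05 by r or by rho in either.

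The next relations are given over the 8 libraries. CRY2 with NR1D2 had r = 0.878 and rho = 0.833 (exact permutation p = 0.00283 and 0.0154, adjusted 0.730 and 0.853), r = 0.926 without its 2 farthest libraries, and r = 0.374 with Puberty 2. CLOCK with CRY2 had r = 0.771 and rho = 0.762 (exact permutation p = 0.0280 and 0.0368, adjusted 0.805 and 0.861) and 0.849 without the 2 farthest, and r = 0.439 with Puberty 2. The paralogs NR1D1 and NR1D2 had r = 0.799 and rho = 0.571 (exact permutation p = 0.0127 and 0.151, adjusted 0.775 and 0.936), and 0.600 without the 2 farthest, and r = 0.650 with Puberty 2. NPAS2 with NR1D1 had r = 0.713 and rho = 0.929 (exact permutation p = 0.0684 and 0.00223, adjusted 0.850 and 0.760) and 0.782 without the 2 farthest, and r = 0.745 with Puberty 2. CLOCK, CRY2, NR1D1 and NR1D2 were thus high together in Prepuberty 2 and Postpuberty 1, across the arms.

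PER1 had lower correlations with these genes. Its r was -0.327 with NR1D1, 0.0868 with NR1D2, -0.109 with CLOCK and 0.284 with CRY2. Without the 2 libraries farthest on PER1 the values with NR1D1, NR1D2 and CRY2 were 0.371, 0.225 and 0.4996, so the negative sign with NR1D1 rested on Prepuberty 2 and Postpuberty 3. The r of PER1 was 0.656 with CRY1 (rho = 0.762, exact permutation p = 0.0857 and 0.0368, adjusted 0.853 and 0.861, and 0.438 without its 2 farthest libraries). CLOCK with DBP rested on single libraries, with r = -0.0141 over 8 and 0.917 once Prepuberty 2 and Puberty 3 were left out. Puberty 3 combined the second highest CLOCK value with the lowest DBP value of the 8.

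A phase contrast was formed for each library as the mean of the early genes minus the mean of the late genes, each gene centred on its mean log2(FPKM + 1) over the 8 libraries, as a description without a test. It was -0.32, -0.15 and 0.09 before puberty, 0.37, -0.00 and -0.27 at puberty and 0.12, 0.19 and -0.04 after it. The stages overlapped, and puberty held the highest and the second lowest value. Both arms were highest in Postpuberty 1 (early 0.39, late 0.27) and lowest in Puberty 2 (-0.70 and -0.70). Its contrast was near 0 through PER3, which was 1.14 above its mean there while the other 5 early genes were below theirs. The high contrast of Puberty 1 came from its late arm (-0.53), where NPAS2 was 1.27 below its mean. The low one of Prepuberty 1 came from PER2, listed at 0 there. Without PER2 in the early arm, a choice made after seeing that 0, Prepuberty 1 was at -0.12 and Puberty 3 had the lowest contrast (-0.35), Puberty 1 remained the highest (0.38), and the stages still overlapped. Without PER3 instead, a choice made after its level in Puberty 2 was seen, the early arm of Puberty 2 was -1.07 and its contrast (-0.37) the lowest of the 9, next to Prepuberty 1 (-0.34), Puberty 1 was again the highest (0.34), and the stages overlapped.

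**Figure D5:**
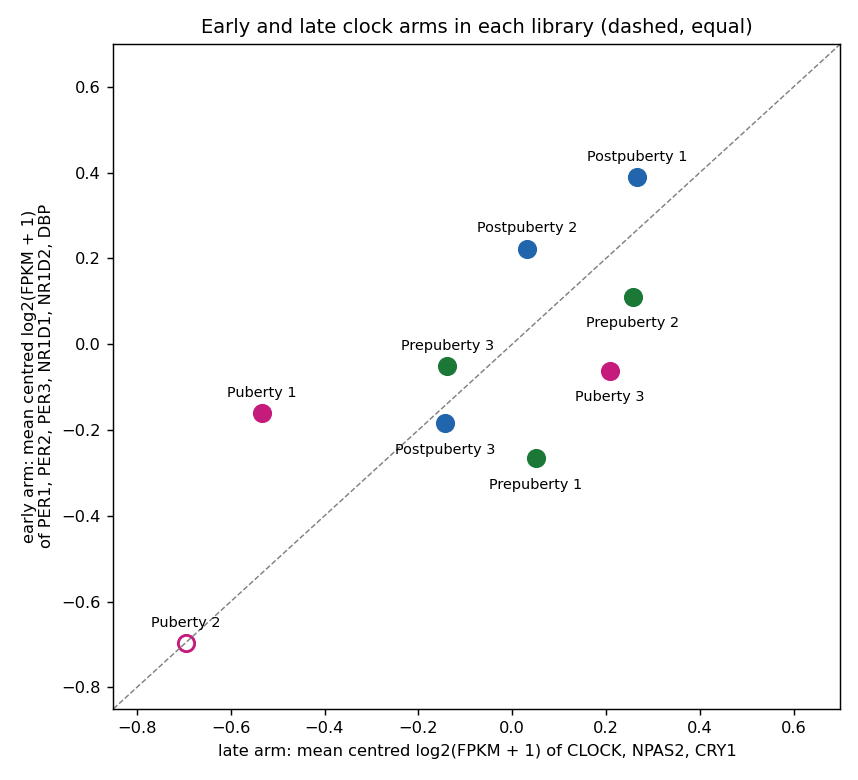
Mean centred log2(FPKM + 1) of the late arm (horizontal) and the early arm (vertical) in each library, coloured by stage, with a dashed line of equality. The libraries run along the line from Puberty 2 (-0.70 in both arms) to Postpuberty 1 (0.27 and 0.39) with Puberty 1 and Prepuberty 1 farthest from it (the latter through PER2, listed at 0 there) and Puberty 2 on it through PER3 (early arm -1.07 without that gene), and no stage takes a side of its own.

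Transcript use of the clock genes differed in Puberty 2, a library that listed fewer transcripts in general. It had 42441 transcripts above 0, against 67824 to 71787 in the other 8. The share of all genes with a change of leading transcript there was not computed, so the values are a description. In the other 8 libraries, 86.9% to 99.8% of NR1D2 lay in 1 of its 5 coding transcripts (9.46 to 16.9 FPKM). That transcript was at 0 in Puberty 2, whose 1.95 FPKM lay in a transcript that reached at most 0.107 elsewhere. For PER1, the transcript that held 48.6% to 83.7% in 8 libraries held 0.303% in Puberty 2, and 5.50 of its 5.52 FPKM there came from 1 that reached at most 0.481 elsewhere. CLOCK had 8 to 12 of its 12 coding transcripts above 0 in the 8 libraries and 1 in Puberty 2, which held all of its 0.766 FPKM and at most 2.71% of CLOCK elsewhere. For DBP the leading transcript held 50.0% to 74.8% in 8 libraries and 11.8% in Puberty 2. For CRY1 it held 33.5% to 70.3% in 8 libraries and 100% in Puberty 2. A second CRY1 transcript, at 0.937 to 1.95 FPKM in the 8 libraries, was at 0 there. CRY2, whose leading transcript held at least 81.1% in every library, showed no such switch. NR1D1 has 1 coding transcript and so could not show one. Among the 8 other libraries NPAS2 was the least settled, with 1 to 6 of 7 transcripts above 0 and a leading transcript between 0% and 65.1% of the gene.

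The partners of these genes in the clock were taken from a list of 26 other clock genes, of which 22 were tested. In none of the 3 comparisons was any of them called, higher or lower, with or without Puberty 2. Stages without overlap were found for 2 of 22 lower in puberty than prepuberty (HLF and BHLHE40), 1 higher in postpuberty than puberty (HLF), and 1 higher and 1 lower in postpuberty than prepuberty (TIMELESS and BHLHE40), with 9 libraries and with 8. In the same order, 2.84%, 5.25%, 3.17% and 1.4% of all tested genes did so with 9 libraries. With 8 the shares were 4.55%, 7.9%, 3.16% and 1.37%. BMAL1, the partner of CLOCK and NPAS2, ran from 2.65 to 4.83 FPKM in the 8 libraries and was 0.177 in Puberty 2. Its r over the 8 libraries was 0.870 with NR1D2, 0.787 with NR1D1 and 0.690 with CLOCK, and -0.262 with PER1 and -0.0118 with CRY1, given as a description. With Puberty 2 these were 0.988, 0.663, 0.952, 0.389 and 0.537, so the negative signs turned with that library and BMAL1 was positive with the receptors that repress it in both sets. RORA and RORB, activators at ROR elements, were low, at 0.0477 to 0.230 and 0.00033 to 0.167 FPKM. CIART, a repressor of the CLOCK and BMAL1 pair, ran from 0.845 to 1.59. The E-box repressor BHLHE41 ran from 4.28 to 13.7, and NFIL3, which binds the same sites as DBP and opposes it, ran from 2.54 to 5.05.

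TEF and HLF are the PAR bZIP relatives of DBP. TEF ran from 17.2 to 33.1 FPKM in the 8 libraries. HLF measured 12.4, 17.3 and 11.5 before puberty, 11.3, 0 and 7.85 at puberty and 18.4, 15.2 and 12.8 after it. Each pubertal library was below each library of the other stages, with or without Puberty 2. Every pubertal library was lower than every prepubertal one for 2.84% of all genes with 9 libraries and 4.55% with 8, and every postpubertal library higher than every pubertal one for 5.25% and 7.9%. With 9 libraries the log2 fold change of HLF was 1.77 (SE 0.79, limma adjusted p = 0.780) for postpuberty against puberty. Without Puberty 2 it was 0.64 (SE 0.25, limma adjusted p = 1) for postpuberty against puberty and -0.48 (SE 0.25, adjusted p = 1) for puberty against prepuberty. HLF and DBP had r = 0.869 over the 8 libraries, as a description. BHLHE40, the other E-box repressor, was highest before puberty, at 2.63, 3.61 and 2.03 FPKM, against 1.17, 0 and 2.02 at puberty and 1.29, 1.44 and 1.81 after it. Its log2 fold change was -0.98 (SE 0.39, limma adjusted p = 0.838) for puberty and -0.56 (SE 0.39, adjusted p = 1) for postpuberty, both against prepuberty, and the former was -0.53 (SE 0.25, adjusted p = 1) without Puberty 2. Every postpubertal library was lower than every prepubertal one for 1.4% of all genes. TIMELESS, which acts in DNA replication and is placed in the clock for its fly relative, measured 0.0663, 0.486 and 0.399 FPKM before puberty, 0.411, 0.398 and 0.881 at puberty and 0.770, 0.551 and 1.59 after it, with a log2 fold change of 0.56 (SE 0.26, limma adjusted p = 1) for postpuberty against prepuberty, where every library was higher for 3.17% of all genes.

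The lists around the clock were read the same way, and 0 of their tested genes were called in any comparison. They were suprachiasmatic and light-input genes (10 of 15 tested), seasonal and melatonin genes (4 of 9), glucocorticoid-induced genes (8 of 9) and immediate-early genes (7 of 8). Without Puberty 2 the glucocorticoid target TSC22D3 was lower in both pubertal libraries (71.5 and 63.0 FPKM) than in every prepubertal one (79.1 to 91.1), beside 4.55% of all genes, and Puberty 2 had 85.5. No other tested gene of these lists separated stages. The melatonin receptor MTNR1A was listed at 0 in all 9 libraries. PER1 is a glucocorticoid target, and in the glucocorticoid list FKBP5 ran from 0.0276 to 3.99 FPKM over the 8 libraries and KLF9 from 13.1 to 33.9. Their log2 fold changes had medians of -0.43, 0.32 and -0.01 for the 3 comparisons, and with 8 libraries -0.13, 0.18 and -0.01.

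Cell type markers differed widely between libraries, and the sums of some lists separated stages. Those of thalamus and cortex were highest in puberty, as given above. Ependyma markers summed to 15.7 to 45.3 FPKM at puberty (to 25.2 without Puberty 2) and 9.01 to 11.8 after it, the comparison in which NR1D1 and HLF separated, with prepuberty (9.39 to 25.0) overlapping both. Of their 4 genes FOXJ1 separated there (3.55 to 11.8 at puberty, 0.382 to 2.99 after), and without Puberty 2 DNAH11 did as well (0.274 and 0.567 against 0.0731 to 0.224). HBB, a blood marker, was higher after puberty (1.08 to 5.07) than before it (0.197 to 1.05), the comparison in which TIMELESS and BHLHE40 separated. The part of these markers in the results was not tested. Neuron markers (9 genes in the data) summed to 318 to 1081 FPKM over the 8 libraries and to 191 in Puberty 2, and oligodendrocyte markers (8 genes) to 6527 to 14893 and 11606. For both lists the ranges of the 3 stages overlapped. PER1 was above 10 FPKM in Prepuberty 1, Prepuberty 3 and Postpuberty 1, the libraries with the highest oligodendrocyte sums (14893, 13520 and 14722). Over the 8 libraries PER1 had r = 0.749 and rho = 0.810 with the mean log2 level of these markers (exact permutation p = 0.0339 and 0.0218, adjusted over all tested genes 0.177 and 0.147). Without Postpuberty 1 and Prepuberty 2, the 2 libraries farthest on the markers, r was 0.647. With the neuron markers PER1 had r = -0.602 and CRY1 r = -0.659 (exact permutation p = 0.123 and 0.0841, adjusted 0.304 and 0.243, rho -0.738 and -0.548). With Puberty 2 these r were -0.0789 and -0.0377, and that of PER1 with the oligodendrocyte markers was 0.595, so the neuron values rested on leaving that library out. The part of cell composition in the PER1 values was not tested. Choroid plexus markers ran from 9.71 to 7630, highest in Puberty 3, the library with the lowest DBP of the 8, and their part in that value was not tested.

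The genes most like DBP and CLOCK were sought among the 12313 tested genes outside the set with a mean of at least 1 FPKM, by Pearson's r over the 8 libraries. For CLOCK they were IFT57 (0.978, and 0.996 over 9), CYTH3 (0.963 and 0.975) and SLK (0.961 and 0.988). For DBP they were ATP11A (0.934 and 0.795), ERICH1 (0.931 and 0.766) and PLXDC1 (0.925 and 0.942). Being the highest of 12313 values from 8 libraries, these are given as a description.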

How the data were processed

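Hypothalamus RNA of 9 Dolang ewes was sequenced after poly-A selection, 1 library per ewe and 3 per stage. The authors trimmed reads with Trimmomatic, aligned them to ARS-UI_Ramb_v3.0 with HISAT2 and estimated transcripts with StringTie. The deposited values are FPKM per transcript, although the table is described as raw counts, so limma on the log2 scale replaced a count test. FPKM carry no read depth, hence no counting interval is given. Of 76684 RefSeq mRNA transcripts, 76682 matched a gene; 22600 assembled transcripts without a gene name were left out, which can lower a gene's sum. FPKM were summed per gene over coding transcripts and a pseudocount of 1 was added before log2. No scaling was applied beyond FPKM. limma 3.58.1 (R 4.3.3) fitted all 9 libraries with stage as factor and a trend of variance with mean. The fit was also run on simulated normal values without listed zeros or an outlying library, so that run does not cover a library such as Puberty 2. Correlations were computed with numpy 2.4.6 and all orders of the libraries. All 10 genes, their role groups and the most alike genes of CLOCK and DBP were named by a rule. The members and lists were chosen with earlier results of these data known. Replicate numbers were not treated as pairs. Alternatives covered pseudocount, filter, scaling, transcript choice, variance model, block and libraries. The labels give no batch.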

Additional observations from a re-analysis of the deposited data

How the results depend on the processing

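Under 23 alternative settings of the stage comparison, 9 of which left out 1 library, limma called 0 genes and 0 clock genes, and the smallest adjusted p of a clock gene was 0.516. Of 683 fold changes of clock genes, 38 reversed, none above 0.34 in size in the reported fit, and the cause was not tested. With the median of ratios, puberty against prepuberty became 0.059 for CRY2, postpuberty against puberty -0.048 for CRY1 and -0.020 for CRY2, postpuberty against prepuberty -0.00018 for CLOCK and -0.0064 for NR1D2, and the gap of NR1D1 -0.024. With quantile normalization, puberty against prepuberty became 0.0043 for PER2 and 0.083 for CRY1, postpuberty against puberty -0.19 for CRY1 and postpuberty against prepuberty -0.0092 for CLOCK. With the leading transcript alone, CRY1 became -0.0010 for postpuberty against puberty and NPAS2 0.42 for postpuberty against prepuberty. With coding and noncoding transcripts summed, an alternative chosen after seeing the data, PER3, whose fold change is not read as a result, went from -0.25 to 0.53 for postpuberty against puberty, its pubertal gap became -0.46, and CRY1 0.019 for postpuberty against prepuberty. Leaving out single libraries gave, for puberty against prepuberty, -0.55 to 0.10 for CLOCK, -0.50 to 0.41 for PER2, -0.38 to 0.0065 for CRY1, -0.21 to 0.048 for CRY2 and -0.54 to 0.012 for NR1D1. For postpuberty against puberty it gave -0.056 to 0.60 for CLOCK and -0.052 to 0.33 for CRY1. For postpuberty against prepuberty it gave -0.060 to 0.18 for CLOCK, -0.14 to 0.21 for NPAS2, -0.28 to 0.20 for PER1, -0.20 to 0.10 for CRY1, -0.12 to 0.28 for CRY2, -0.088 to 0.46 for NR1D1 and -0.055 to 0.24 for NR1D2. Without a change of sign, fold changes of at least 0.3 in size also moved by over 1.5 times under settings other than leaving out a library. For puberty against prepuberty PER1 was -0.57 with equal totals, -0.21 with the median of ratios and -0.23 with quantile normalization, NR1D1 -0.54, -0.18 and -0.18, and NPAS2 -0.49 and DBP -0.15 with quantile normalization. For postpuberty against puberty PER1 was 0.46, 0.087 and 0.093 in the same order. With the median of ratios and with quantile normalization CLOCK was 0.19 and 0.014 and NR1D1 0.23 and 0.24, and with the latter NPAS2 was 0.43, NR1D2 0.53 and DBP 0.41. A pseudocount of 0.1 gave 0.52 for CLOCK, 1.69 for NPAS2 and 1.63 for PER2. The leading transcript gave -1.26 and 1.37 for NR1D2 in the first and second comparison. Values for PER1, NPAS2 and PER2 given with the genes complete this list. Single libraries left out also moved some without a change of sign. For puberty against prepuberty NPAS2 ran from -1.09 to -0.39, PER1 -0.58 to -0.25, NR1D2 -1.21 to -0.022 and DBP -0.67 to -0.25. For postpuberty against puberty NPAS2 ran from 0.37 to 1.07, PER2 0.23 to 1.02 and NR1D2 0.076 to 1.26. For postpuberty against prepuberty DBP ran from 0.18 to 0.50. Over 9 libraries the negative pairs between arms numbered 6 with the median of ratios, 6 with the leading transcript and 0 with noncoding transcripts added. Of 160 correlations of the named pairs, 12 reversed, each set against its r over 9 libraries and not the r over 8 given above. PER1 with NR1D1 went from -0.0259 to 0.385 with equal totals and 0.287 with the leading transcript. With the median of ratios CRY2 with NR1D2 went from 0.374 to -0.309 and CLOCK with CRY2 from 0.439 to -0.204. CLOCK with PER1 went from 0.401 to -0.134 with the same scaling. PER1 with CRY1 went from 0.749 to -0.0835 with the leading transcript. Over 8 libraries with the median of ratios, 0 of the 9 pairs with CRY2 were negative (lowest r 0.301). Leaving out single libraries, r ranged from -0.327 to 0.286 for PER1 with NR1D1, -0.109 to 0.539 for CLOCK with PER1 and -0.0141 to 0.863 for CLOCK with DBP. Same-numbered libraries deviated together with r from -0.315 to 0.515, so the numbers were not taken as pairs, and with the replicate block 0 genes and 0 clock genes were called. PER3 has no value where it failed the filter.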
